A study of Felis catus with 8 samples.

Results

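The cell cycle and DNA replication genes described here are 35 genes that drive or mark cell division, read in cat liver on a human array. They comprise 9 G1 cyclins, kinases and the transcription factor E2F1, 2 inhibitors of cyclin-dependent kinases, 11 genes of DNA replication and nucleotide synthesis, and 13 genes of G2 and mitosis. Members were found as probe sets that the platform annotation gives to a single gene, that gene being on the list. This rule found 483 of 257101 probe sets and all 35 genes, of 18701 genes named alone by a probe set. CDK1 stands in that annotation under its older symbol CDC2. Of the 483 member probe sets, 217 lay above the median of all probe sets and entered the gene values, and each of the 35 members kept at least 1. Among all 224320 probe sets naming a single gene, 111624 lay above that median.

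Snap-frozen liver was taken from male cats at 9 months of age on 4 diets, and 2 arrays were run per diet. Controls ate standard chow. Monosodium glutamate (MSG) was added to this chow at 1.125% to make the MSG diet. A separate diet contained trans fat at 8.6% and high-fructose corn syrup (HFCS) at 24%, and the combined diet contained trans fat, HFCS and MSG at the same contents. The dams of all cats, controls included, had been on their diet from 3 weeks before mating through nursing, and the offspring were weaned onto it. Replicate arrays are labelled as biological and carry the numbers of different cats, but litters are not named and pooling of RNA is not mentioned. The p-values therefore measure the spread between these arrays.

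A cell enters division when mitogens raise D-type cyclins, which activate CDK4 and CDK6. These kinases, and then cyclin E with CDK2, phosphorylate the retinoblastoma protein and free E2F factors, which switch on genes of DNA replication, while the inhibitors p21 (CDKN1A) and p27 (CDKN1B) hold the kinases in check. The MCM2 to MCM7 proteins form the ring that unwinds DNA at replication origins, where CDC6 loads it. Cyclins A and B with CDK1 then carry the cell into mitosis, which Aurora and Polo-like kinases, the spindle checkpoint kinases and the anaphase activator CDC20 take to its end. In adult liver nearly all hepatocytes rest outside the cycle, and they can re-enter it after loss of tissue or injury.

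Values were log2 intensities, and a gene's value was the mean of its kept probe sets. The mean level of the members had a median of 3.90, against 3.96 over all 17910 genes tested, where the cut for keeping a probe set was 2.43. The 8 lowest members were CDK1 (mean 2.53), BUB1 (2.70), BUB1B (2.81), PLK1 (2.94), MCM4 (2.97), AURKB (3.01), MKI67 (3.08) and TOP2A (3.13), which lay nearest to that cut. Human probes read cat transcripts only where the sequences match, so levels are not compared between genes here. Precision is limited by having 2 arrays per diet. Array medians were between 5.25 and 5.28 on the linear scale. The spread between arrays of 1 diet had a median SD of 0.16 over the members and 0.20 over all genes, but CDC6, CCNB2 and AURKA, which rest on 1 kept probe set each, varied by SDs of 1.01 to 1.10.

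Hepatocyte markers were abundant on all 8 arrays, with albumin between 9.63 and 10.06. Both trans-fat/HFCS arrays stood apart by skeletal muscle genes, which summed over 10 markers to a linear intensity of 669 to 709 there and to 174 to 193 on the other 6 arrays. Without those 2 arrays, trans fat and HFCS can be read only as the combined against the MSG diet, and MSG only as the MSG diet against control. The first of these values is given below for most of the members described and of the other genes called. The second is given for the members named in the MSG comparison. The part of these muscle genes in the members' values was not tested. In whole liver, fewer cells of a type and less RNA per cell cannot be told apart.

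**Figure D1:**
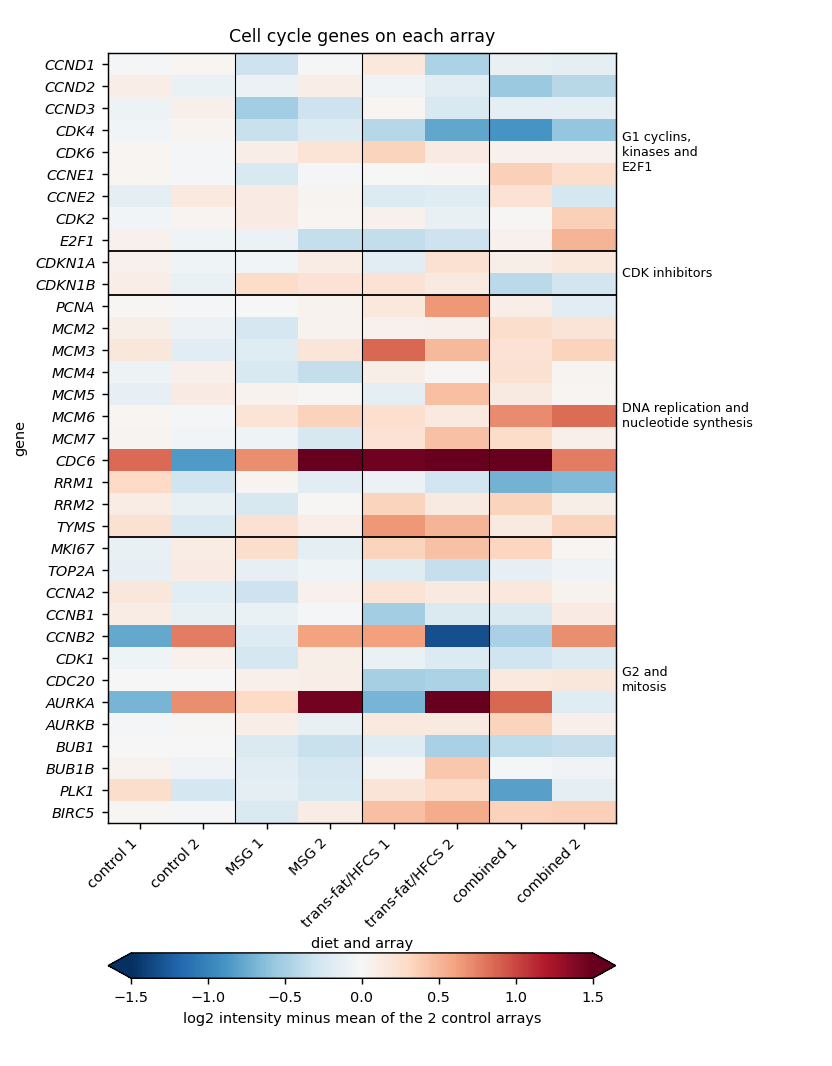
Log2 intensity of each of the 35 members on each of the 8 arrays, as the difference from the mean of the 2 control arrays (blue lower, red higher, colours capped at 1.5). Horizontal lines separate the 4 groups of genes and vertical lines the 4 diets, and the strong colours of CDC6, CCNB2 and AURKA also differ between arrays of 1 diet.

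The first comparison asked how the members differed with trans fat and HFCS, averaged over diets without and with MSG (4 arrays against 4). CDK4, the G1 kinase that partners D cyclins, was lower with trans fat and HFCS, and it was the only member past the threshold, 1 of 35 where 7.66% of all genes tested were called. Genes of DNA replication lay mostly on the higher side, 10 of 11 with a positive change and a median of 0.28 on the log2 scale, but none passed the test. G2 and mitosis genes showed no common direction, with 5 positive and 8 negative changes and a median of -0.03. Over all genes the median was 0.02 and 47.7% of changes were negative, and over all 35 members 21 were positive with a median of 0.08. At an unadjusted p under 0.05 in limma, 8 of the 35 members lay past the threshold, as did 4387 of all 17910 genes.

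**Figure D2:**
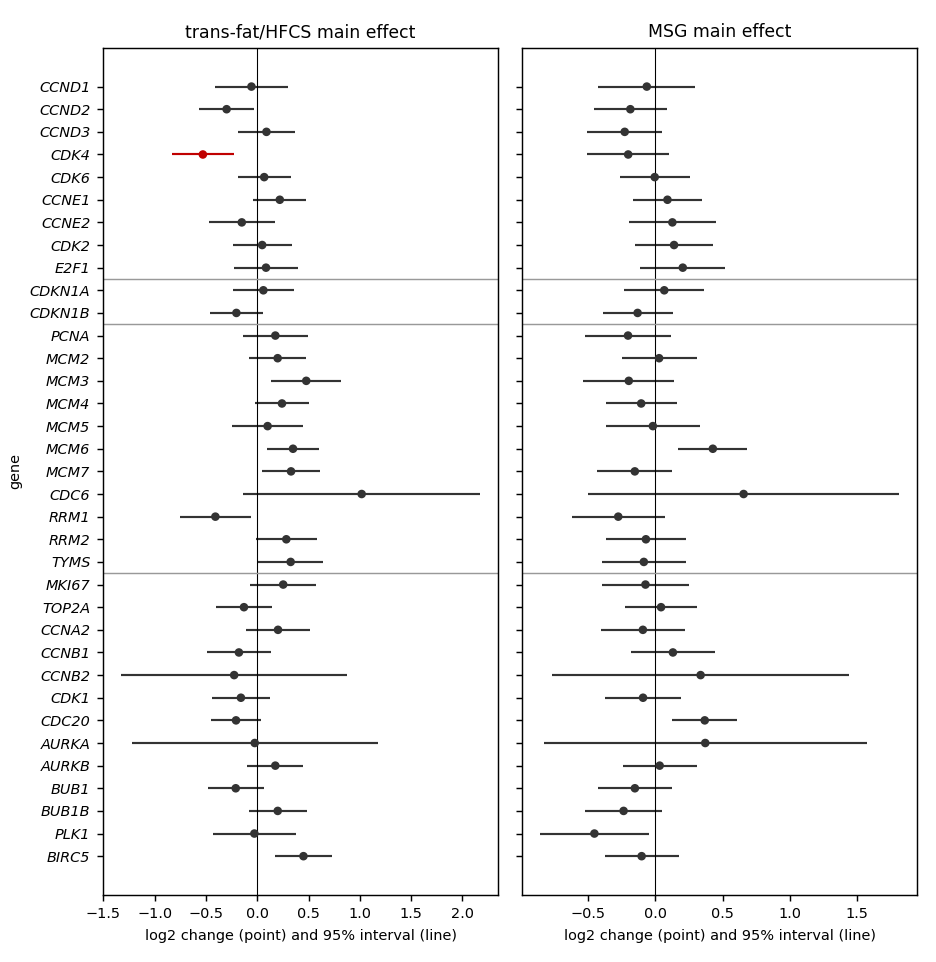
Log2 change of each member (point) with its 95% interval (line) for trans fat and HFCS (left) and for MSG (right), each setting 4 arrays against 4, with grey lines between gene groups. CDK4, at -0.53 on the left, is the single member past the adjusted threshold and is drawn in red, and the intervals of CDC6, CCNB2 and AURKA are the widest.

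CDK4 had a log2 intensity of 5.98 and 6.05 on the control arrays, 5.68 and 5.81 on the MSG arrays, 5.59 and 5.24 on the trans-fat/HFCS arrays and 5.13 and 5.44 on the combined arrays. All 4 arrays with trans fat and HFCS lay below the other 4. The log2 change was -0.53 (SE 0.13), a level 1.44-fold lower, with a Benjamini-Hochberg adjusted p of 0.0469 in limma. All 6 kept probe sets of CDK4 had a negative change, but 1 of them carried most of the size. That probe set stood at 6.36, 6.44, 6.94 and 6.17 on the control and MSG arrays and at 4.25, 4.24, 3.73 and 5.07 on the trans-fat/HFCS and combined arrays, a change of -2.16. The other 5 changed by between -0.62 and -0.06, with a mean of -0.21, and averaged over them the 4 arrays with trans fat and HFCS (5.41 to 5.86) overlapped the other 4 (5.43 to 5.98). The call stood close to the threshold and passed in 3 of 16 alternative analyses, with log2 changes from -0.62 to -0.15 over the 16. Among those that left out 1 array it passed only without combined array 2. Without both trans-fat/HFCS arrays, the combined diet differed from the MSG diet by -0.46 (adjusted p = 0.247 in limma with those arrays left out).

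Among the D cyclins, CCND2 was next. Its log2 intensity was 5.22 and 5.02 on the control arrays, 5.04 and 5.22 on the MSG arrays, 5.07 and 4.97 on the trans-fat/HFCS arrays and 4.56 and 4.71 on the combined arrays. Only the combined arrays were low, and the groups of 4 overlapped. The change was -0.30 (SE 0.12, adjusted p = 0.166 in limma), and probe sets diverged, with 5 of 7 negative and 1 called higher at 1.49. With its brightest probe set alone CCND2 was called lower, at -0.92 (adjusted p = 0.0137 in limma), and with the median of probe sets it changed by 0.10. CCND1, the main D cyclin of regenerating liver, had 4.75 and 4.81 on the control arrays, 4.47 and 4.76 on the MSG arrays, 4.94 and 4.30 on the trans-fat/HFCS arrays and 4.67 and 4.65 on the combined arrays. The 2 trans-fat/HFCS arrays of CCND1 held its highest and lowest values, and the change was -0.06 (SE 0.16, 95% interval -0.42 to 0.30). CCND3 (0.09) and CDK6 (0.07) had small changes.

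CCNE1, the cyclin that activates CDK2 at the entry to S phase, stood at 5.38 and 5.32 on the control arrays, 5.12 and 5.33 on the MSG arrays, 5.34 and 5.37 on the trans-fat/HFCS arrays and 5.70 and 5.62 on the combined arrays. Both combined arrays were the highest, and the averaged change was 0.22 (SE 0.11, adjusted p = 0.277 in limma). CCNE2 changed by -0.15, CDK2 by 0.05 and E2F1 by 0.08, and none of these passed. In all, 5 of the 9 genes of this group were positive and 4 negative, with a median of 0.05.

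The inhibitor CDKN1A, which p53 induces, had 3.44 and 3.30 on the control arrays, 3.33 and 3.48 on the MSG arrays, 3.20 and 3.60 on the trans-fat/HFCS arrays and 3.46 and 3.53 on the combined arrays. The combined arrays lay just above the control arrays, the other pairs of diets overlapped, and the change was 0.06 (SE 0.13, 95% interval -0.24 to 0.36). CDKN1B stood at 5.79 and 5.60 on the control arrays, 5.97 and 5.92 on the MSG arrays, 5.92 and 5.83 on the trans-fat/HFCS arrays and 5.30 and 5.42 on the combined arrays. It was thus lowest on the combined arrays, and its averaged change was -0.20 (SE 0.12, adjusted p = 0.313 in limma).

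Of the replication genes, MCM3, a subunit of the helicase ring, stood at 3.21 and 2.88 on the control arrays, 2.86 and 3.22 on the MSG arrays, 3.90 and 3.53 on the trans-fat/HFCS arrays and 3.26 and 3.39 on the combined arrays. All 4 arrays with trans fat and HFCS lay above the other 4, by a narrow gap on the combined diet. The change was 0.48 (SE 0.15, adjusted p = 0.0893 in limma) and did not pass. MCM6, another subunit, had 3.45 and 3.38 on the control arrays, 3.62 and 3.77 on the MSG arrays, 3.67 and 3.56 on the trans-fat/HFCS arrays and 4.13 and 4.25 on the combined arrays. The combined arrays were the highest and the control arrays the lowest, and the change with trans fat and HFCS was 0.35 (SE 0.11, adjusted p = 0.1 in limma).

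MCM7 also separated the arrays, with 4.33, 4.25, 4.23 and 4.05 on the control and MSG arrays and 4.50, 4.74, 4.57 and 4.36 on the trans-fat/HFCS and combined arrays. Its change was 0.33 (SE 0.12, adjusted p = 0.142 in limma). MCM2 (0.20), MCM4 (0.24) and MCM5 (0.10) overlapped between the groups of 4. Averaged over the 6 subunits and set against the control mean, the trans-fat/HFCS arrays stood at 0.22 and 0.27, the combined arrays at 0.31 and 0.25, and the MSG arrays at -0.08 and -0.00. Among their 54 kept probe sets 39 were positive (72.2%), where 48.5% of all kept single-gene probe sets were. Probe sets of 1 gene share its transcripts, and the 6 genes were read on the same 8 arrays, so these are not independent values.

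RRM1, the large subunit of the reductase that makes deoxynucleotides, was the only replication gene with a negative change, although with its brightest probe set alone the change was 0.55. It stood at 6.37 and 5.78 on the control arrays, 6.12 and 5.92 on the MSG arrays, 5.98 and 5.79 on the trans-fat/HFCS arrays and 5.37 and 5.41 on the combined arrays. Only the combined arrays were low, and the change was -0.41 (SE 0.15, adjusted p = 0.141 in limma). Among 13 kept probe sets of RRM1, 5 were positive and 8 negative, and 1 stood at 6.56, 6.70, 7.10, 6.31, 7.55 and 7.44 on the control, MSG and trans-fat/HFCS arrays but at 3.83 and 2.44 on the combined arrays. Its partner subunit RRM2 had a positive change of 0.28, with all 4 of its kept probe sets positive.

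PCNA, the sliding clamp of the DNA polymerases, had 4.47 and 4.44 on the control arrays, 4.46 and 4.50 on the MSG arrays, 4.61 and 5.10 on the trans-fat/HFCS arrays and 4.55 and 4.29 on the combined arrays. The second trans-fat/HFCS array alone was high, and the change was 0.18 (SE 0.14, 95% interval -0.14 to 0.50). TYMS, which makes thymidylate, changed by 0.33 (SE 0.14, adjusted p = 0.19 in limma) and was highest on the trans-fat/HFCS arrays, at 3.54 and 3.41. CDC6 changed by 1.02, but its single kept probe set gave an SE of 0.51, and the control arrays alone stood at 3.91 and 2.22.

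Among the mitotic genes, BIRC5, which encodes survivin of the chromosomal passenger complex, came nearest to the threshold. It stood at 4.69 and 4.65 on the control arrays, 4.46 and 4.78 on the MSG arrays, 5.12 and 5.22 on the trans-fat/HFCS arrays and 5.01 and 5.02 on the combined arrays. All 4 arrays with trans fat and HFCS were higher than the other 4. The change was 0.45 (SE 0.12), a level 1.37-fold higher, with an adjusted p of 0.0576 in limma, and 5 of 6 kept probe sets were positive. Without both trans-fat/HFCS arrays the value was 0.40 (adjusted p = 0.313 in limma). In all, 3 members lay higher without overlap (BIRC5, MCM3 and MCM7), where 8.29% of all genes did, and 1 lay lower (CDK4), where 6.72% did. The first count was near the share of all genes and the second below it.

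MKI67, whose product Ki-67 is the usual marker of cycling cells, had 2.81 and 3.04 on the control arrays, 3.19 and 2.79 on the MSG arrays, 3.26 and 3.37 on the trans-fat/HFCS arrays and 3.26 and 2.96 on the combined arrays. The trans-fat/HFCS arrays were the highest, the lower of them level with combined array 1, and the other diets overlapped. The change was 0.25 (SE 0.14, 95% interval -0.07 to 0.57, adjusted p = 0.313 in limma). TOP2A, which untangles replicated DNA, had 3.11 and 3.37 on the control arrays, 3.12 and 3.17 on the MSG arrays, 3.05 and 2.89 on the trans-fat/HFCS arrays and 3.12 and 3.18 on the combined arrays. Its change was -0.13 (SE 0.12, 95% interval -0.40 to 0.14), the opposite sign to MKI67. With its brightest probe set alone TOP2A was called lower, at -1.80 (adjusted p = 0.0186 in limma).

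The cyclins CCNA2 (0.20) and CCNB1 (-0.18), the mitotic kinase CDK1 (-0.16), the Aurora kinase AURKB (0.18) and the spindle checkpoint kinases BUB1 (-0.21) and BUB1B (0.20) had changes between -0.21 and 0.20, with arrays of the groups overlapping in each. For CCNB2 (-0.23) and AURKA (-0.03) the arrays of 1 diet differed by more than the diets did. AURKA stood at 3.31 and 5.64 on the trans-fat/HFCS arrays.

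**Figure D3:**
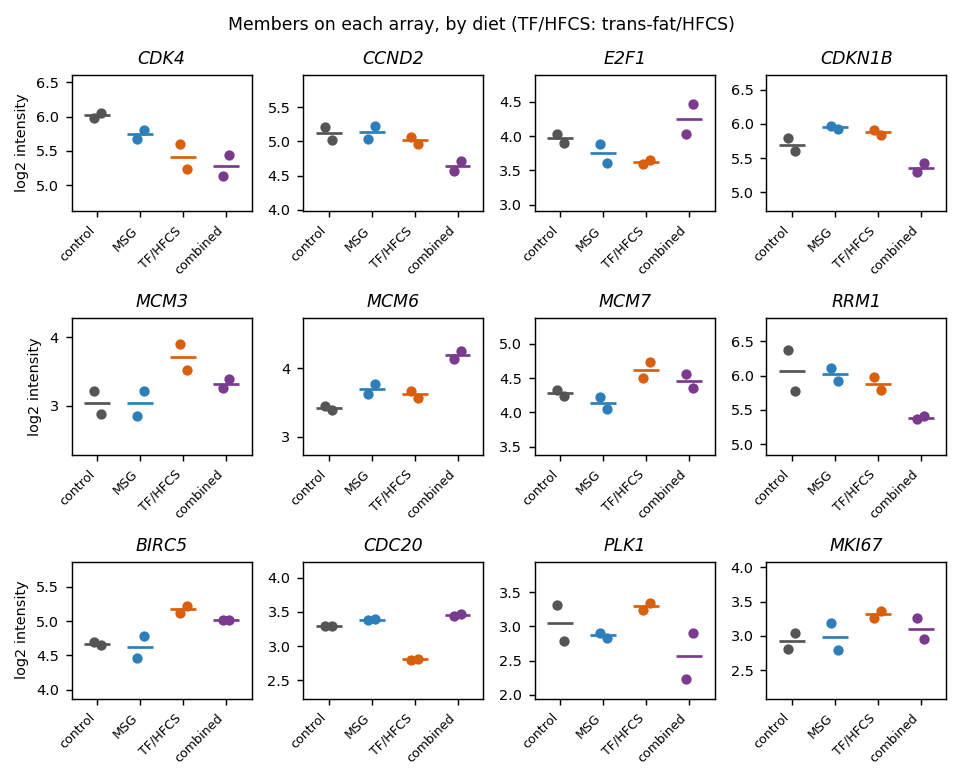
Log2 intensity on each array (points) and the mean of the 2 arrays of a diet (bars) for 12 members, with a separate axis range for each gene. CDK4 falls below its control and MSG values on all 4 arrays with trans fat and HFCS, BIRC5, MCM3 and MCM7 lie above theirs, and CCND2, CDKN1B, RRM1 and MCM6 stand apart on the combined arrays.

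Single probe sets were also tested, since a human probe set can fail on a cat transcript. Of the 217 kept member probe sets, 4 were called higher in cats given trans fat and HFCS and 1 lower, where 2.45% of the 111624 kept single-gene probe sets were called. Those higher belonged to CCND2 (1.49), TYMS (1.37), CDK6 (1.33) and MCM7 (1.22), and the lower one to CDK4 (-2.16), each with other probe sets of its gene at smaller changes or of opposite sign. The TYMS probe set was high on the trans-fat/HFCS arrays alone, at 4.42 and 4.55, against 1.83 to 2.39 on the other 6. The MCM7 probe set stood at 10.32, 10.16, 9.66 and 9.81 on the control and MSG arrays and at 11.08, 11.03, 11.30 and 11.42 on the trans-fat/HFCS and combined arrays.

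**Figure D4:**
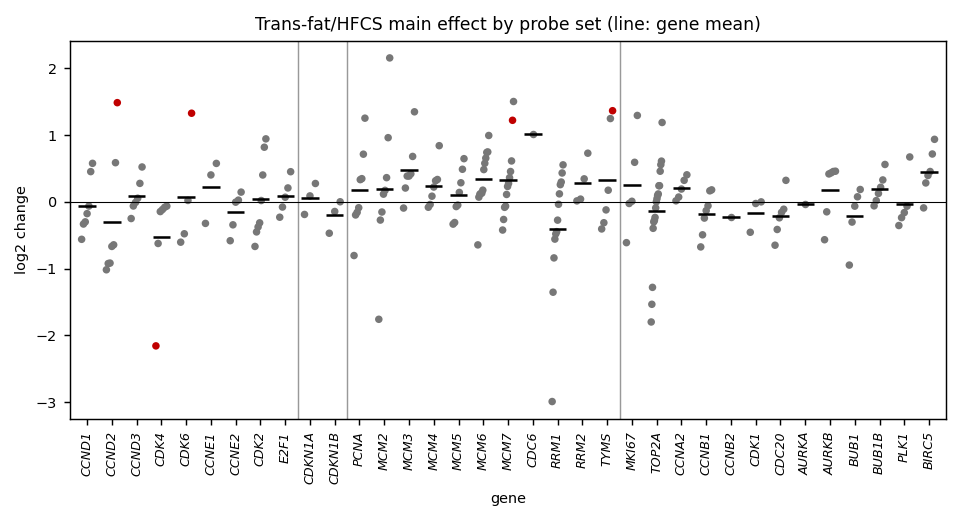
Log2 change with trans fat and HFCS of each of the 217 kept member probe sets (points), by gene, with the gene mean as a bar and vertical lines between gene groups. The 5 probe sets past the adjusted threshold are red, those of CDK4 all lie below 0, and single probe sets reach far from their gene mean in CDK4, MCM2, RRM1 and TOP2A.

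The same contrast was then taken apart into its value without MSG and its value with MSG, which share no array. No member passed in the trans-fat/HFCS diet against control, where 2.48% of all genes were called, or in the combined against the MSG diet, where 1.66% were. At an unadjusted p under 0.05, limma gave 6 of 35 members and 3269 of all 17910 genes in the first. In the second it gave 9 members and 3106 genes. CDK4 differed by -0.60 (SE 0.19) without MSG and by -0.46 (SE 0.19) with it, and BIRC5 by 0.50 and 0.40 (SE 0.17 each). All 6 of MCM2 to MCM7 were positive in both, as were 9 of the 11 replication genes, 16 of the 35 members and 32.9% of all genes.

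For single subunits the size of the difference moved between these comparisons. MCM3 differed by 0.67 without MSG and 0.28 with it, MCM4 by 0.05 and 0.43, and MCM6 by 0.20 and 0.50. PCNA (0.41 and -0.05), TYMS (0.58 and 0.07) and MKI67 (0.39 and 0.12) differed more without MSG, on the arrays where muscle genes were high. RRM1 (-0.19 and -0.63), CCND2 (-0.10 and -0.50) and CCNE1 (0.00 and 0.43) differed more with it. CCND1 (-0.16 and 0.04), CDKN1A (0.03 and 0.09), TOP2A (-0.27 and 0.01), CDKN1B (0.18 and -0.59), CDC20 (-0.48 and 0.07) and PLK1 (0.24 and -0.30) complete the members described. The test of such a change is the interaction, given below, in which no member passed.

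**Figure D5:**
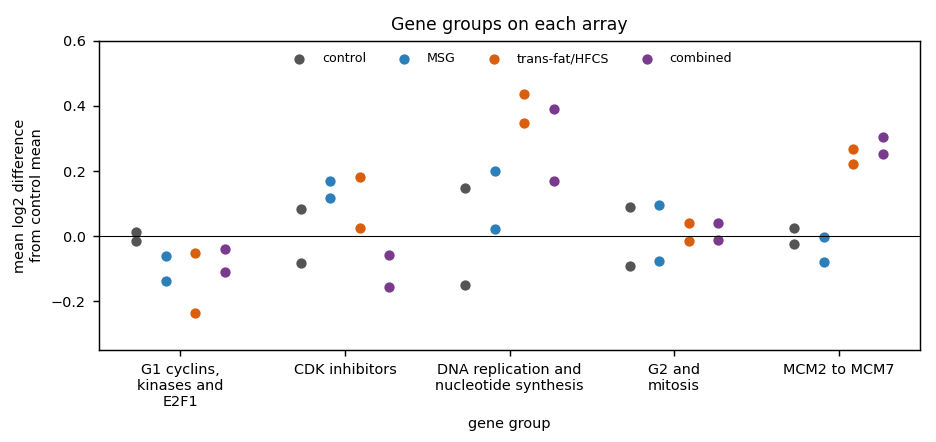
Mean log2 difference from the control mean on each of the 8 arrays (points, coloured by diet) for the 4 groups of members and for MCM2 to MCM7. The 6 MCM genes lie between 0.22 and 0.31 on the 4 arrays with trans fat and HFCS and between -0.08 and 0.02 on the other 4, while G2 and mitosis genes mix.

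The second comparison asked what MSG did, averaged over both base diets. No member passed, where 0.329% of all genes were called. At an unadjusted p under 0.05 limma gave 3 of 35 members, MCM6, CDC20 and PLK1, and 1417 of all 17910 genes. Over all 35 members 14 changes were positive and 21 negative, with a median of -0.07. In the replication group 3 of 11 were positive, with a median of -0.09. The median of all genes was 0.00.

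MCM6 was higher with MSG by 0.43 (SE 0.11, adjusted p = 0.322 in limma), and its arrays are those given above, lowest on control and highest on the combined diet. Without the trans-fat/HFCS arrays, MSG against control gave 0.28, and with the brightest probe set the averaged change was -0.06. CDC20, which activates the anaphase-promoting complex, stood at 3.29 on both control arrays, 3.37 and 3.39 on the MSG arrays, 2.80 and 2.82 on the trans-fat/HFCS arrays and 3.44 and 3.46 on the combined arrays. It was the 1 member with no overlap between arrays with and without MSG, higher with it, where 1.09% of all genes were. The change was 0.37 (SE 0.11, adjusted p = 0.398 in limma), and the trans-fat/HFCS arrays alone were far from the rest. Without them, MSG against control gave 0.09 (SE 0.15, adjusted p = 0.947 in limma with those arrays left out). With the brightest probe set of CDC20, the averaged change with MSG was 0.06 (adjusted p = 0.978 in limma). The spread of CDC20 within diets, an SD of 0.011, was the lowest of the 17910 genes, but its probe sets varied more. A single probe set stood at 2.98 and 1.91 on the control arrays and at 4.14 and 2.04 on the combined arrays.

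PLK1, the Polo-like kinase of mitotic entry, had 3.31 and 2.79 on the control arrays, 2.91 and 2.83 on the MSG arrays, 3.24 and 3.34 on the trans-fat/HFCS arrays and 2.23 and 2.90 on the combined arrays. The first combined array was the lowest, and the change with MSG was -0.45 (SE 0.18, adjusted p = 0.576 in limma), and -0.18 for MSG against control alone. CDK4 (-0.20), CCND1 (-0.06), CDKN1A (0.07), PCNA (-0.20), MKI67 (-0.07) and TOP2A (0.04) did not pass. Without the trans-fat/HFCS arrays, MSG against control gave -0.27 for CDK4, -0.16 for CCND1 and 0.04 for CDKN1A. It gave 0.03 for PCNA, 0.06 for MKI67 and -0.09 for TOP2A, whose signs thus turned. On chow alone, MSG against control called no member, where 0.296% of all genes were called. There 1 member, CCND3 at -0.42 (SE 0.17), had an unadjusted p under 0.05 in limma, as did 1369 of all 17910 genes.

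No member passed in the interaction of MSG with trans fat and HFCS, where 0.151% of all genes were called. An unadjusted p under 0.05 in limma was found for 3 of 35 members and for 1625 of all 17910 genes. CDKN1B differed by 0.25 with MSG on chow and by -0.51 on the trans-fat/HFCS base, an interaction of -0.76 (SE 0.23, adjusted p = 0.389 in limma). E2F1 stood at 4.04 and 3.90 on the control arrays, 3.88 and 3.61 on the MSG arrays, 3.60 and 3.66 on the trans-fat/HFCS arrays and 4.04 and 4.47 on the combined arrays. It was lower on either single addition and highest on 1 combined array, with an interaction of 0.85 (SE 0.28, adjusted p = 0.422 in limma). The interaction of CDC20 was 0.55 (SE 0.21, adjusted p = 0.505 in limma), and -0.23 when its brightest probe set stood for the gene.

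The combined diet was compared with control and with the trans-fat/HFCS diet as well. No member passed in either, where 1.16% and 0.179% of all genes were called. At an unadjusted p under 0.05, limma gave 5 of 35 members and 2950 of all 17910 genes for the comparison with control. For the comparison with the trans-fat/HFCS diet it gave 6 members and 1608 genes. Against control, MCM6 was nearest, at 0.77 (SE 0.16, adjusted p = 0.0603 in limma), followed by CDK4 at -0.73 (SE 0.19, adjusted p = 0.108) and RRM1 at -0.68 (SE 0.22, adjusted p = 0.169). Against the trans-fat/HFCS diet, CDC20 differed by 0.64 (SE 0.15, adjusted p = 0.252 in limma) and PLK1 by -0.72 (SE 0.25, adjusted p = 0.464). Both comparisons rest on the same 2 combined arrays. Markers of stellate cells and fibroblasts summed over 7 genes to 124 to 129 on the combined arrays and to 169 to 178 on the other 6. Their part in the values of CCND2, CDKN1B and RRM1, which were lowest on the combined arrays, was not tested.

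A member that did not pass is not shown to be alike between diets. For trans fat and HFCS, the 95% intervals of 25 of 35 members lay within 1.5-fold in either direction and those of 32 within 2-fold. For MSG these numbers were 28 and 32. For the interaction they were 2 and 23, with a median interval half-width of 0.59 on the log2 scale, against 0.30 for the averaged effects and 0.42 between single diets.

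Cell types that divide in liver were read through their markers. With trans fat and HFCS, 6 of 9 lymphocyte markers were positive with a median of 0.22 and none called, and they summed to 125 to 130 on the control arrays, 127 to 130 on MSG, 136 to 146 on trans-fat/HFCS and 126 to 145 on the combined diet. The B cell marker MS4A1, between 2.24 and 2.87, stayed near the cut for dim probe sets. Of 8 macrophage markers 6 were positive with a median of 0.22, and CD68 rose (0.78, SE 0.14, adjusted p = 0.015 in limma). CD68 differed by 1.31 for trans-fat/HFCS minus control but by 0.26 between the combined and MSG diets (adjusted p = 0.563 in limma). They summed to 280 to 281 on control, 244 to 270 on MSG, 274 to 314 on trans-fat/HFCS and 308 to 328 on the combined diet. Of the 5 measured erythroid precursor markers 3 were positive with a median of 0.24, none called. The erythroid markers summed to 140 to 167 on control, 133 to 149 on MSG, 138 to 154 on trans-fat/HFCS and 155 to 174 on the combined diet. The 9 measured hepatocyte markers had a median of -0.07, none called. The part of these cells in the values of BIRC5 and the MCM genes was not tested.

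Other genes of the same pathway were read from 4 lists. Among 42 measured genes of replication outside the member list, 18 changes with trans fat and HFCS were positive and 24 negative, with a median of -0.05. The wider list thus did not share the mostly positive changes of the 11 members. Of the 42, 2 rose and none fell, where 4.44% of all genes rose and 3.22% fell. MCM10, which helps to open the helicase at origins, stood at 4.78, 4.75, 4.74 and 4.56 on the control and MSG arrays and at 5.45, 5.31, 5.18 and 5.28 on the trans-fat/HFCS and combined arrays, with no overlap (log2 0.60, SE 0.12, adjusted p = 0.0185 in limma). It passed in 10 of 16 alternatives, but not without either control array, either MSG array, trans-fat/HFCS array 1 or both trans-fat/HFCS arrays (adjusted p = 0.141 for the last). LIG1, the ligase that joins Okazaki fragments, stood at 4.15, 3.90, 4.18 and 4.61 on the control and MSG arrays and at 5.03, 4.70, 4.81 and 5.13 on the others (log2 0.71, SE 0.16, adjusted p = 0.0288 in limma), and passed in 8 of 16 alternatives, but not without either control array, MSG array 1, trans-fat/HFCS array 1 or combined array 2. LIG1 also did not pass without both trans-fat/HFCS arrays (0.57, adjusted p = 0.231 in limma) or with its brightest probe set alone (0.55, adjusted p = 0.188). CDC7, the kinase that fires origins, had a change of -0.52 (adjusted p = 0.0527 in limma) and did not pass.

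Of 30 measured other G1 and E2F genes, 2 rose with trans fat and HFCS and none fell, near the 4.44% and 3.22% of all genes. TFDP1, the partner that E2F factors need to bind DNA, stood at 3.08, 3.23, 3.16 and 3.00 on the control and MSG arrays and at 4.08, 3.72, 3.51 and 4.24 on the others (log2 0.77, SE 0.18, adjusted p = 0.0332 in limma). It rests on 2 kept probe sets, and with the brighter one alone its change was -0.16. Its call remained in 2 of 16 alternatives, quantile normalization and without combined array 1. Without both trans-fat/HFCS arrays the values were 0.79 for TFDP1 (adjusted p = 0.165 in limma) and 0.65 for CDK3 (adjusted p = 0.146). CDK3, a kinase of the exit from rest, rose by 0.52 (SE 0.13, adjusted p = 0.0442 in limma), and passed in 6 of 16 alternatives, among the arrays left out only without combined array 1. E2F5, a repressive E2F, stood at 4.67 and 4.74 on control and at 3.72 and 3.73 on the combined diet, where it fell by 0.97 (adjusted p = 0.0409 in limma), with a value of 0.04 for its brightest probe set. MYC, which drives cell growth, was higher with MSG by 0.65 without passing (adjusted p = 0.123 in limma). It stood at 4.22 and 4.23 on control, 5.24 and 5.50 on MSG, 4.42 and 4.53 on trans-fat/HFCS and 4.80 and 4.44 on the combined diet. MSG thus differed by 1.15 on chow (adjusted p = 0.053 in limma) and by 0.14 on the trans-fat/HFCS base, and the interaction of -1.01 did not pass (adjusted p = 0.318).

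Of 44 measured other G2 and mitosis genes, 1 rose and 1 fell with trans fat and HFCS, below the 4.44% and 3.22% of all genes. DLGAP5, a spindle protein, stood at 2.56, 2.26, 2.59 and 2.56 on the control and MSG arrays and at 3.37, 3.66, 2.81 and 3.94 on the others (log2 0.95, SE 0.23, adjusted p = 0.0378 in limma). CDC27, a subunit of the anaphase-promoting complex, stood at 5.60, 5.69, 5.67 and 5.42 on the control and MSG arrays and at 4.96, 4.65, 4.61 and 5.23 on the others (log2 -0.73, SE 0.16, adjusted p = 0.0304 in limma), but its brightest probe set changed by 0.06. With any 1 array left out, CDC27 passed only without combined array 2, and DLGAP5 only without either combined array. DLGAP5 stood at 0.80 (adjusted p = 0.269 in limma) and CDC27 at -0.62 (adjusted p = 0.222) when both trans-fat/HFCS arrays were left out. CCNF, with a change of -0.58 with MSG, missed the threshold (adjusted p = 0.117 in limma), and its change was -0.36 on chow alone.

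Of 22 measured checkpoint genes and p53 targets, 4 fell with trans fat and HFCS and none rose, and 16 of 22 changes were negative with a median of -0.15, where 3.22% of all genes fell, 4.44% rose and 47.7% of changes were negative. BTG1, an antiproliferative gene, stood at 8.78, 8.95, 9.25 and 9.16 on the control and MSG arrays and at 8.63, 8.67, 8.32 and 8.30 on the others, and fell by 0.55 (SE 0.11, adjusted p = 0.0223 in limma). RRM2B, the reductase subunit that p53 induces, fell by 0.56 (adjusted p = 0.0354), and SESN3, a sestrin that restrains growth signalling, fell by 0.51 (adjusted p = 0.0477). With its brightest probe set alone RRM2B changed by -0.13 (adjusted p = 0.69 in limma). SESN3 passed with its brightest probe set (-0.51, adjusted p = 0.0432 in limma) but not with the median (-0.22, adjusted p = 0.525). BTG1 passed with neither, at -0.51 with the brightest and -0.52 with the median (adjusted p = 0.0791 and 0.119 in limma). GADD45B, a stress gene that slows the cycle, fell by 0.47 with trans fat and HFCS (adjusted p = 0.0440 in limma) and by 0.89 with MSG (adjusted p = 0.018). It stood at 5.28 and 5.41 on control, 4.24 and 4.29 on MSG, 4.63 and 4.74 on trans-fat/HFCS and 4.09 and 3.89 on the combined diet, so that all other diets lay below control. Its change with MSG was -0.78 with the median of probe sets and -0.97 with the brightest, and neither passed (adjusted p = 0.213 and 0.18 in limma). Without both trans-fat/HFCS arrays BTG1 stood at -0.89 (adjusted p = 0.0505 in limma), SESN3 at -0.74, RRM2B at -0.44 and GADD45B at -0.28. GADD45B differed by -1.08 between the MSG and control diets, which did not pass there (adjusted p = 0.0711 in limma) but passed with all 8 arrays. With all 8 arrays GADD45B was also called lower on the combined diet than on control (-1.36). BTG1 was called lower on the combined than on the MSG diet (-0.89), but not with its brightest probe set (-0.53, adjusted p = 0.205 in limma) or with the median (-0.88, adjusted p = 0.132). In these comparisons 0.296%, 1.16% and 1.66% of all genes were called. The count of 4 fell to 0 or 1 when any 1 array was left out and to 0 without both trans-fat/HFCS arrays. The remaining call was BTG1, without combined array 2, and the call of GADD45B with MSG remained only without either combined array.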

How the data were processed

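Deposited values were intensities on a linear scale per exon-level probe set of the human HuGene 1.0 ST array, already normalized. The submitters' processing notes list GCRMA, Partek and build hg19, but no tool versions. Livers of 4 to 5 cats per diet gave RNA, and 250 ng was labelled, per the labels. Here values were log2 transformed, probe sets with a mean above the median of all (2.43) and a single gene in the platform annotation were kept (111624), and these were averaged per gene (17910 genes). Another 10 probe sets naming a member with a second gene were left out. A model of the 4 diets, covering every array, was fitted by lmFit and eBayes (limma 3.58.1, R 4.3.3), with 4 residual and 5.01 prior degrees of freedom. Tests were two-sided, with Benjamini-Hochberg adjustment over all genes and a threshold of 0.05. Errors are limma's moderated standard errors. The steps were tested on simulated data. CDK1 was matched through its older symbol CDC2 from background knowledge, and a table of cat RefSeq genes listed all 35 members. Named genes were all members, and on the wider lists those past the threshold and up to 3 of smallest p. Members and lists were chosen with earlier results of these data known. Residuals of arrays with the same replicate number correlated by -0.06 to 0.04 over 6 pairs of diets, and the main model did not pair them. With 2 arrays per diet, these values cannot show that arrays of the same number are unrelated. Alternatives were other filters, gene summaries, quantile normalization, an offset of 16, the replicate number as a block and leaving out each array.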

Additional observations from a re-analysis of the deposited data

How the results depend on the processing

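The number of members called for trans fat and HFCS, 1, was 0 without a filter on dim probe sets, with the median of probe sets, with quantile normalization and with the replicate number as a block. It was 4 with the 75th percentile filter (CDK4, MCM2, MCM7 and RRM1), 5 with the brightest probe set (CCND2, CDK2, MCM2, MCM7 and TOP2A) and 3 with an offset of 16 (CDK4, MCM7 and BIRC5), and from 0 to 1 with any 1 array left out. Without both trans-fat/HFCS arrays, a choice made after seeing the data, it was 0. The count over all genes also rose in these 3 settings, from 1372 of 17910 in the main analysis. It was 2056 of 14590 with the 75th percentile filter, which left 31 members measured. With the brightest probe set it was 2182 of 17910, and with the offset 2434 of 17910. Directions of the members called were mixed. With the 75th percentile filter CDK4 and RRM1 were lower, and MCM2 and MCM7 higher. With the brightest probe set CCND2 (-0.92) and TOP2A (-1.80) were lower, and CDK2 (0.82), MCM2 (0.96) and MCM7 (1.22) higher. With the offset CDK4 was lower, and MCM7 and BIRC5 higher. For CDK4 the adjusted p in limma ranged from 0.0106 to 0.672. In other comparisons of 0 members, the brightest probe set gave 3 for trans-fat/HFCS minus control (CCND2 at -1.13, TOP2A at -2.37 and MCM7 at 0.82). It gave 1, MCM7, for the combined diet against control (1.12) and for the combined against the MSG diet (1.63). An offset of 16 gave 1 for both of the last comparisons. No filter gave 1 (MCM6) for the combined diet against control, and the 75th percentile filter gave 1 (MCM2) for the combined against the MSG diet. For these other comparisons, all genes called were not counted under the alternative settings.

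Of all genes, 1372 were called for trans fat and HFCS, against 595 with the median of probe sets, 2182 with the brightest, 2434 with the offset, 233 without both trans-fat/HFCS arrays and 443 to 1234 with any 1 array left out. The 4 genes called lower on the list of checkpoint genes and p53 targets became 0 with the median, 1 with the brightest probe set, 1 with the replicate block, 0 without both trans-fat/HFCS arrays and 0 to 1 with any 1 array left out. The 5 member probe sets called became 9 with the offset, 2 with the replicate block, 0 without both trans-fat/HFCS arrays and 0 to 4 with any 1 array left out. The replicate block moved no other of these counts by over 1.5 times. TFDP1 turned to -0.16 with the 75th percentile filter and with the brightest probe set, CDC27 to 0.056 and E2F5 (combined diet against control) to 0.039 with the brightest probe set. Among members, signs also turned for trans fat and HFCS, none of them called in the setting where its sign turned. CCND2, which turned with the median of probe sets, was called lower with the brightest probe set (-0.92). With the brightest probe set RRM1 became 0.55, PCNA -0.16 and CDKN1A -0.19. With the median of probe sets CCND1 became 0.44, CCND2 0.10, CCNE1 -0.32 and MKI67 -0.01. The cause of these changes was not tested. The positive replication genes numbered 9 to 10 of 11 in every alternative, with medians from 0.13 to 0.36, but with the brightest probe set RRM1 was among them and PCNA was not.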
